A study of Mus musculus with 24 samples.

Results

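The comparison asked for which genes the gap between B cells of the mouse spleen in germinal centers and those in the memory pool was not the same early and late after immunization. It used the 12 arrays, of 24 in the series, that hold these cells at day 7 and at day 40, with 3 arrays in each of 4 groups. The arrays were chosen by their labelled cell type and day, not by any measured value. All 4 groups came from female C57BL/6 mice that were 8 to 10 weeks old when given the hapten NP on the carrier CGG in alum, and all were B220+ IgG1+ cells that bound the related hapten NIP. Memory cells were sorted as CD38+ PNA- and germinal center cells as CD38dull PNA+. Before the sort, the labels of these cells describe a magnetic depletion with antibodies to antigens of T cells (CD3, CD90, CD5), NK cells, granulocytes, macrophages and red cells and to the unswitched receptors IgD and IgM. RNA was amplified before hybridization. The labels do not say whether the 3 arrays of a group came from separate animals or how many mice were pooled, so the p-values measure the spread between these arrays, which may be technical.

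Germinal centers are the sites in the follicle where activated B cells divide, mutate their antibody genes and compete for antigen and T cell help. Memory B cells are long-lived cells that leave this process and divide little. Early memory cells can form before or beside the germinal center, and late germinal centers hold cells that have been selected over many rounds, which is the background for asking whether the contrast between the cell types shifts with time.

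The quantity reported throughout is the interaction on the log2 scale, the germinal center minus memory difference at day 40 less the same difference at day 7. A positive value means that germinal center cells gained on memory cells between the days, which can come from either cell type, and 1 unit is a doubling of intensity. Values after ± are standard errors (SE) for differences. A gene was called when its adjusted p was under 0.05 and its interaction at least 1 in size. Medians of the deposited log2 values were between 2.39 and 2.48 per array, upper quartiles were between 8.94 and 9.10, and the floor of 2.15 held 40.6% to 42.4% of probe sets. Arrays of a group correlated with r from 0.962 to 0.991 over 12 pairs. Memory day 7 replicate 1 stood nearer to the germinal center arrays of its day, with a mean r of 0.93 against 0.872 and 0.88 for the other memory arrays of day 7. A group is called at background where each of its 3 arrays lay at or below its own array median, and a difference against such a group is a lower bound, taken against the array medians of that group and written as at least. Interactions are printed as fitted also where a group lay at background, and their size is then not exact. Named genes given with an SE for which this holds include Gad1, Oas1a, Fkbp11, Ppfia4, Eepd1, Alox5ap, Lgals3 and Adgre1. Of the tested genes, 382 passed the filter on dim genes only through 1 group, with fewer than 3 arrays above their median in the other groups; they had to differ, and 15.4% of them had a called interaction against 3.83% of the other 9937. The 11 named genes among them are given by their values, with no SE or p, and are no support for a pattern.

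The labels were checked against transcripts of the sort. Bcl6, the master regulator of the germinal center, was higher in germinal center cells at both days (by 1.31 ± 0.21 at day 7 and 1.21 ± 0.21 at day 40), as was Mki67, a proliferation marker (2.11 ± 0.40 and 2.99 ± 0.40). Cd80, a costimulatory ligand of memory cells, was lower in germinal center cells by 3.48 ± 0.64 and 3.42 ± 0.64. The brightest probe set of Ighm, the IgM heavy chain gene, read 14.92 to 15.57 on every array, although the sort was for IgG1. Its other probe sets did not agree in level. Group means were 14.81 to 15.24 for 1 of them, 10.90 to 11.32 for another and 2.15 throughout for yet another. Whether they read other immunoglobulin transcripts was not tested. The myeloid defining transcripts were not evenly spread. S100a9, a neutrophil gene, was above the array median on 8 of 12 arrays. It read 13.56 on memory day 7 replicate 1, 12.51 on memory day 40 replicate 2 and 13.84 on germinal center day 40 replicate 1. Memory day 40 replicate 3 (11.31) and germinal center day 7 replicates 1 and 2 (9.38 and 10.03) were lower. So were memory day 7 replicate 3 (7.47) and memory day 40 replicate 1 (6.78), and 4 arrays lay at 2.15. C1qa, Alas2 and Ncr1, which mark macrophages, red cell precursors and NK cells, lay at 2.15 on all 12 arrays, as did C1qc. Other macrophage and myeloid genes did not. Lyz2 read 3.16 to 11.31 and C1qb 3.49 to 7.48, each above the array median on all 12 arrays. Csf1r was above it on 3 arrays, with 6.73 on germinal center day 40 replicate 1, and Adgre1 on 7. Cd3e, a T cell gene, was above the array median on 2 of 12 arrays, memory day 40 replicate 2 (4.18) and germinal center day 40 replicate 1 (2.55).

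Most of the contrast between the cell types was shared by both days, and 440 of 10319 tested genes had a called interaction (4.26%). Of these, 256 were positive (2.48%) and 184 negative (1.78%). Over all tested genes the median interaction was 0.033, and over the called genes its median size was 2.27. Germinal center cells were higher than memory cells in 1280 genes (12.4%) and lower in 1337 (13%) at day 7, 2617 in all (25.4%). At day 40 they were higher in 1720 (16.7%) and lower in 1398 (13.5%), 3118 in all (30.2%). Between the days, memory cells changed in 493 genes (4.78%), 275 higher (2.66%) and 218 lower (2.11%) at day 40, and germinal center cells in 611 (5.92%), 370 higher (3.59%) and 241 lower (2.34%). The differences between the cell types at both days, which share no array, had a Pearson r of 0.843 across genes, given as a description since genes are not independent. Genes called at both days went the same way in 99.3%. Of the genes with a called interaction, 184 (41.8%) were called between the cell types at day 40 alone and 77 (17.5%) at day 7 alone. Another 100 (22.7%) were called at both days in one direction with the larger gap at day 40, and 32 (7.3%) likewise with the larger gap at day 7. The rest were 13 (3%) called in opposite directions and 34 (7.7%) at neither day. Over all tested genes these shares were, in the same order, 11.1%, 6.3%, 11.8%, 7.2%, 0.1% and 63.5%. All 13 tested genes with opposite calls had a called interaction, which calls of at least 1 each way favour. Without rescaling, 58.2% of called genes were positive; with arrays shifted to a common median the median of all genes moved by -0.12 and the counts became 219 positive and 256 negative (46.1% positive), so the split between directions depends on the scaling.

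**Figure D1:**
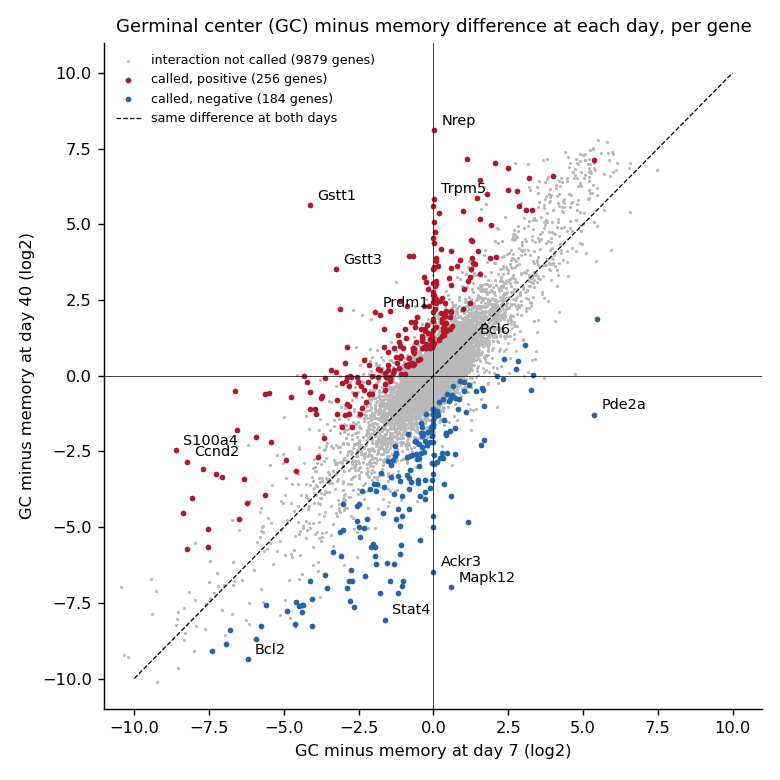
Each point is 1 of 10319 tested genes, with the germinal center minus memory difference (log2) at day 7 on the horizontal axis and at day 40 on the vertical axis. Red and blue points are the 256 positive and 184 negative called interactions, grey points are not called, and the dashed line marks equal differences. Most genes follow the line, Gstt1 and Gstt3 sit in the upper left, and Nrep and Trpm5 lie on the vertical axis.

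The largest interaction turned a difference around. Gstt1 and Gstt3 encode glutathione S-transferases of the theta class, enzymes that conjugate glutathione to reactive compounds. Gstt1 read 7.09, 8.72 and 8.45 in memory cells of day 7 and 4.41, 3.96 and 3.55 in germinal center cells of day 7. At day 40 it read 5.12, 4.66 and 3.53 in memory cells and 10.10, 10.11 and 9.99 in germinal center cells. The high groups were memory at day 7 and germinal center at day 40, and neither overlapped the low groups. The germinal center minus memory difference was -4.11 ± 0.47 at day 7 and 5.63 ± 0.47 at day 40, an interaction of 9.74 ± 0.67 (adjusted p = 2.31e-05). Gstt3 had the same high and low groups, at 5.37, 7.95 and 6.09 in memory and 3.70, 3.61 and 2.33 in germinal center cells of day 7, then 2.62, 2.42 and 2.23 in memory and 5.50, 6.57 and 5.74 in germinal center cells of day 40. Its interaction was 6.77 ± 0.86 (adjusted p = 0.00162). Gstt2, another theta class gene, was chosen after its values were seen and had an interaction of 2.61 ± 0.20 (adjusted p = 5.39e-05), with means of 11.88 and 10.22 at day 7 and 10.39 and 11.33 at day 40 in memory and germinal center cells. These genes are paralogs, and whether their probe sets read each other's transcripts was not tested.

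The windows of 250 bases before the RefSeq starts of Gstt1 (chr10:75797732-75797981, minus strand, GRCm38.p6) and Gstt3 (chr10:75781423-75781672, minus strand) are shown because these neighbours moved together; capitals mark the core of the interferon-stimulated response element (ISRE), searched on both strands, which 3.04% of 27025 such windows hold. Also searched were AP-1 (TGANTCA, in 6.87%), CRE (TGACGTCA, in 1.62%), the STAT and BCL6 core (TTCNNNGAA, in 7.18%), the E-box (CACGTG, in 6.05%) and NF-kB (in 0.13%), none of which overlaps the marked letters in the windows printed.
Gstt1: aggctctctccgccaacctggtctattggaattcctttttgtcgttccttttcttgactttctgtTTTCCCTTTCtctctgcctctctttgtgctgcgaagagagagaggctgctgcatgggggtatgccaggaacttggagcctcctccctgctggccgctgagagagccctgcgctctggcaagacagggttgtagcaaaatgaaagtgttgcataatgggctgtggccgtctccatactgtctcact
Gstt3: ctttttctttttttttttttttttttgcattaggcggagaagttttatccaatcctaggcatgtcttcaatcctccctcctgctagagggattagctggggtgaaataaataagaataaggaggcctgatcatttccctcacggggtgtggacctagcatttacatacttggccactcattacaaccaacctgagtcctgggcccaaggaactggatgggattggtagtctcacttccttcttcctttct
Gstt1 holds 1 match, on the reverse strand, and Gstt3 holds none. The match is a description of the letters and says nothing of binding.

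The other 11 genes called in opposite directions at the 2 days had smaller interactions than Gstt1 and Gstt3. Prdm1, which encodes BLIMP-1, the factor that drives plasma cell formation, read 3.72, 6.31 and 5.92 in memory and 3.49, 3.49 and 3.14 in germinal center cells of day 7. At day 40 it read 4.15, 5.68 and 3.67 in memory and 6.50, 6.42 and 6.89 in germinal center cells. All 3 germinal center arrays of day 40 lay above every other array, while the memory arrays of both days were spread. Its interaction was 4.05 ± 0.92 (adjusted p = 0.0347), and the call was lost in 11 of 24 alternatives, with an adjusted p of 0.0715 without germinal center day 40 replicate 1. Morrbid, a long noncoding RNA that restrains the apoptosis gene Bcl2l11, went from -3.11 ± 0.63 to 2.19 ± 0.63, an interaction of 5.30 ± 0.90 (adjusted p = 0.00767), but its other probe set gave -0.44. Pon3, a paraoxonase, went from -1.12 to 2.46, and Zfp365 from -1.44 to 2.14. Slamf9, a receptor of the SLAM family, went the other way, from 1.59 to -2.29, as did Sec16b, from 1.71 to -1.01. These 4 genes fall outside the rule for named genes and were chosen after their values were seen, from the 13.

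Which cell type and day carried each interaction was described from the 4 group means: a group stands apart where its gap to the nearest other mean is larger than the range of the other 3. Germinal center cells of day 40 stood apart most often, in 151 of the 440 called genes (34.3%), higher in 85 and lower in 66. Memory cells of day 40 stood apart in 83 (18.9%), higher in 47 and lower in 36, and memory cells of day 7 in 52 (11.8%), higher in 47 and lower in 5. Germinal center cells of day 7 stood apart in 26 (5.9%), lower in 18 and higher in 8. In 128 genes (29.1%) no single group did. In 3 of the 66 genes where germinal center cells of day 40 were lower, and 1 of the 5 where memory cells of day 7 were lower, an array overlapped the other groups. In the remaining patterns the 3 arrays lay beyond all 9 others. These genes were picked for a called interaction and a gap between means, which favours little overlap, so the overlaps are no support for a pattern. The counts also include genes that passed the filter only through 1 group and had to differ, 59 of the called genes. Neither the patterns nor the overlaps were counted over all tested genes, so the order of the groups is a description.

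**Figure D2:**
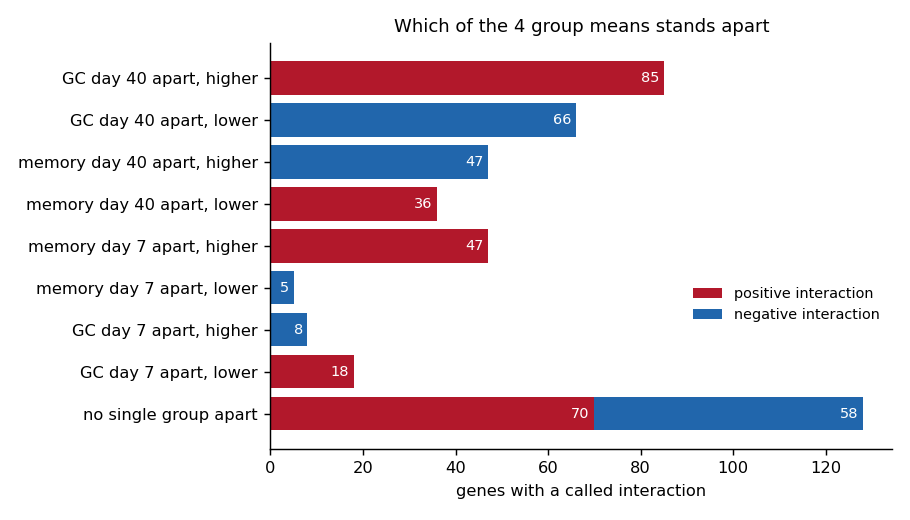
Bars give the number of the 440 called genes in which the named group mean stood apart from the other 3, split by whether it was higher or lower, with red for positive and blue for negative interactions. The longest bars with a single group apart are germinal center (GC) day 40 higher (85) and lower (66).

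Some genes were bright in germinal center cells of day 40 and dark elsewhere. In 25 of the 85 genes in which that group stood higher the other 3 groups were all at background, a pattern that the filter favours: 45.57% of the 79 tested genes with 3 groups at background were called, against 3.52% of those with none. Nrep, a neuronal regeneration related protein, read 2.15 on each memory array of day 7, 2.25, 2.15 and 2.15 in germinal center cells of day 7 and 2.15, 2.68 and 2.16 in memory cells of day 40. It then read 10.50, 10.44 and 10.39 in germinal center cells of day 40, with no array between 2.68 and 10.39. It passed the filter only through these 3 arrays. It exceeded germinal center cells of day 7 by at least 8.01, its interaction was 8.08, and its second probe set gave 7.15. Trpm5, a calcium-activated cation channel known from taste cells, read 7.96, 7.88 and 8.14 in germinal center cells of day 40 and 2.15 to 2.21 on the other 9 arrays, which puts germinal center above memory cells of day 40 by at least 5.58. A second Trpm5 probe set gave 5.79 and another, dim one, 0.29.

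Ranbp17, a nuclear transport receptor, read 8.27, 7.47 and 7.55 against 2.15 on the other 9 arrays, above memory cells of day 40 by at least 5.35. Rgs9, which speeds the shut-off of G protein signals, read 6.99, 7.28 and 7.52 against 2.17 to 2.23, a difference at day 40 of at least 4.85. Fer, a cytoplasmic tyrosine kinase, read 8.01, 7.30 and 7.31, with 2.72 the highest value elsewhere, a difference at day 40 of at least 5.13. For these 3 genes the additional probe sets gave smaller interactions, the highest being 1.79 for Ranbp17, 1.23 for Rgs9 and 0.22 for Fer. Rflna, a filamin-binding protein, was at 9.06, 9.27 and 9.58 in germinal center cells of day 40 (at least 6.89 above memory cells), and germinal center cells of day 7 were the next highest at 4.73, 2.76 and 2.28. Eepd1, a nuclease-like protein linked to replication fork repair, read 9.49, 9.35 and 8.93 and had the same order, with an interaction of 4.94 ± 0.74 (adjusted p = 0.00426). Ier3, an immediate early gene, read 6.05, 5.86 and 5.88 against at most 2.36 elsewhere, a difference at day 40 of at least 3.52. It was the called gene of 26 tested early activation genes, beside 4.26% of all tested genes. None of the 25 that passed the filter otherwise was called. Nrep, Trpm5, Ranbp17, Rgs9, Fer, Rflna and Ier3 all passed the filter only through germinal center cells of day 40.

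Germinal center cells of day 40 were lower in 66 of the called genes, among them Stat4, Il10ra, Lgals9 and Rdx. Stat4, a transcription factor of cytokine signalling, read 11.36, 11.75 and 11.78 in memory and 9.96, 9.87 and 10.18 in germinal center cells of day 7, and 11.42, 10.88 and 11.21 in memory cells of day 40. In germinal center cells of day 40 it read 3.82, 2.75 and 2.77, far below every other array. The germinal center minus memory difference went from -1.63 ± 0.28 to -8.06 ± 0.28, an interaction of -6.43 ± 0.39 (adjusted p = 1.06e-05). Il10ra, the ligand-binding chain of the interleukin-10 receptor, read 7.83 to 10.03 on the other 9 arrays and 2.96, 2.34 and 2.30 here (-5.78 ± 0.57, adjusted p = 0.000318). Lgals9, which encodes galectin-9, a sugar-binding protein that damps B cell receptor signals, read 9.16 to 11.24 elsewhere and 3.81, 3.15 and 2.32 here (-5.38 ± 0.42, adjusted p = 6.37e-05).

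Rdx encodes radixin, which ties the cell membrane to actin. It was among the brightest of this pattern, at 12.56 to 13.28 on 9 arrays and 8.38, 8.05 and 6.15 in germinal center cells of day 40, with -4.95 ± 0.65 (adjusted p = 0.002) and -5.71 and -5.42 from its additional probe sets. Arhgef3, an activator of RhoA, had -4.97 ± 0.43, and Cdyl2, a chromodomain protein, had -5.35 ± 0.44. Calcrl, the receptor for adrenomedullin and CGRP, had -4.91 ± 0.33, and Pip4p2, a phosphoinositide phosphatase, had -5.91 ± 0.36. Dusp3, a phosphatase of MAP kinases, read 9.31 to 11.30 on 9 arrays and 3.52, 3.03 and 3.56 here (-6.00 ± 0.46), but its additional probe sets gave 0.76 and 1.85, so its call rests on 1 probe set. Cnn3, an actin-binding calponin, had -4.63 ± 0.59, and its 5 additional probe sets gave -0.09 to -5.15. The -0.09 came from a probe set with group means of 2.15 to 2.25, near the floor, whose sign says nothing. Cd72, an inhibitory co-receptor of the B cell, had a smaller shift of -1.91 ± 0.32 (adjusted p = 0.0076) and was the called gene among 22 of B cell receptor signalling. Klf7, a Krüppel-like factor, had -1.47 ± 0.17 (adjusted p = 0.000915) and was the called gene among 20 quiescence factors. Both list counts stand beside 4.26% of all tested genes, and 1 call in a list of this size says little about it.

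**Figure D3:**
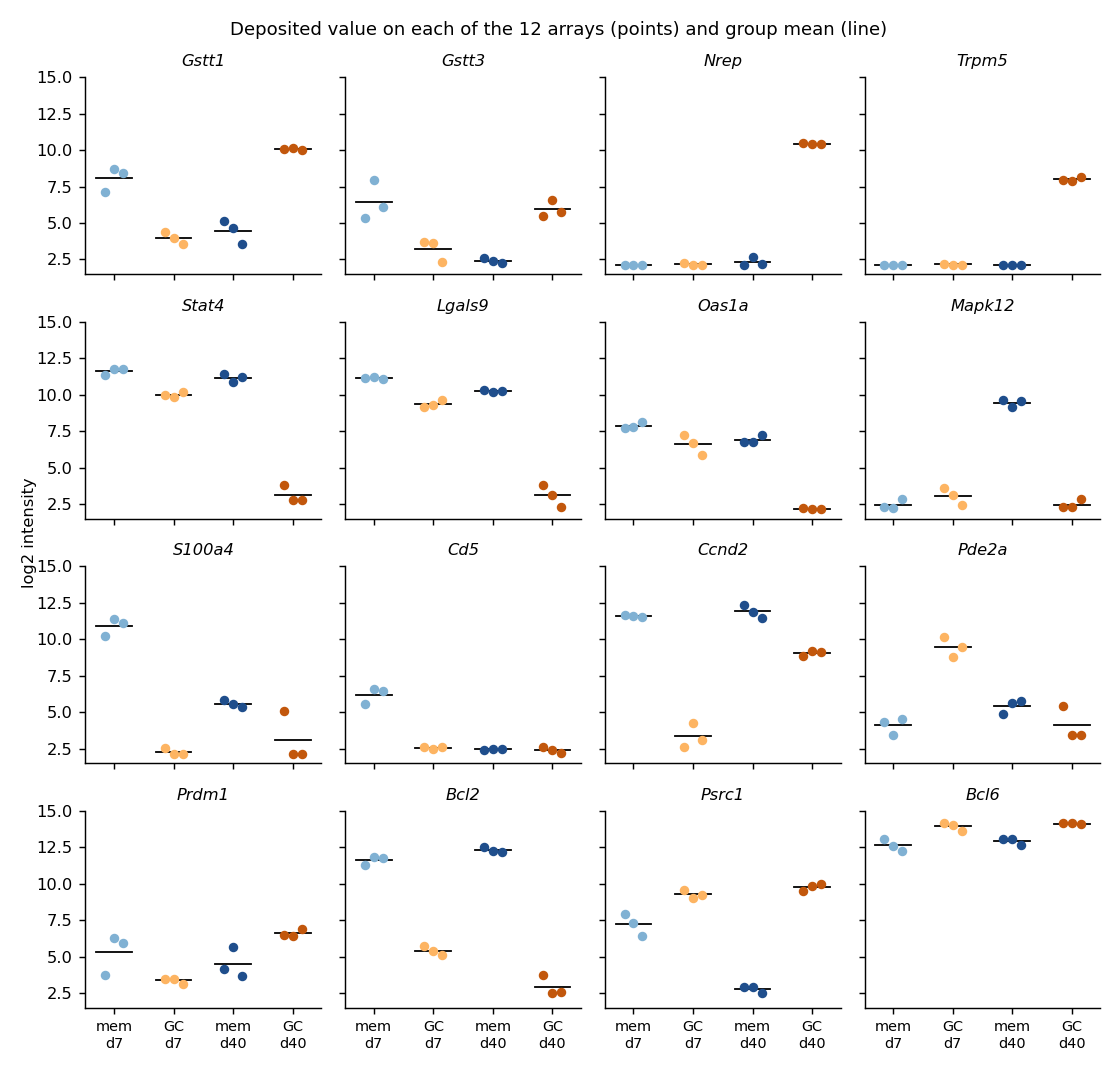
Each panel plots the deposited log2 intensity of 1 gene on each of 12 arrays (points, 3 per group) with the group mean (line), for memory (mem) and germinal center (GC) cells at day 7 (d7) and day 40 (d40). Nrep and Trpm5 are high in germinal center cells of day 40 alone, Stat4, Lgals9 and Oas1a are low there, Mapk12 is high in memory cells of day 40, S100a4 and Cd5 are highest in memory cells of day 7, and Bcl6 keeps its order.

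Interferon-stimulated genes, which cells switch on through ISRE elements in answer to interferon, had calls in the negative direction alone with all 12 arrays. Of 18 tested, 4 had a called negative interaction, none a positive one and 14 were not called, beside 1.78% and 2.48% of all tested genes, with a list median of 0.01 beside 0.033 for all genes. Oas1a, an antiviral enzyme that senses double-stranded RNA, read 7.69, 7.77 and 8.10 in memory and 7.25, 6.68 and 5.84 in germinal center cells of day 7, and 6.77, 6.75 and 7.23 in memory cells of day 40. It read 2.20, 2.18 and 2.18 in germinal center cells of day 40, which is background, with an interaction of -3.47 ± 0.43 (adjusted p = 0.00136). Ifit2, an inhibitor of viral translation, read 4.05, 3.91 and 3.79 there and 5.30 to 7.52 on the other arrays (-1.93 ± 0.33, adjusted p = 0.00767). Cmpk2, a mitochondrial nucleotide kinase, read 3.36 on all 3 of these arrays against 5.14 to 6.73 elsewhere (-2.95 ± 0.48, adjusted p = 0.00616). Ddx58, the RNA sensor RIG-I, had -3.33 ± 0.70 (adjusted p = 0.0244) and kept its call in 17 of 25 alternatives. Mx1 (1.98 ± 0.73, adjusted p = 0.166) and Irf7 (-0.10 ± 0.40, adjusted p = 0.915) are examples of members that did not pass. Without memory day 7 replicate 1, 2 members were called positive and 4 negative.

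The windows before Oas1a (chr5:120907526-120907775, minus strand) and Lgals9 (chr11:78984925-78985174, minus strand) are shown because both genes were lowest in germinal center cells of day 40 and hold the ISRE core, in capitals; they were chosen after the matches were seen.
Oas1a: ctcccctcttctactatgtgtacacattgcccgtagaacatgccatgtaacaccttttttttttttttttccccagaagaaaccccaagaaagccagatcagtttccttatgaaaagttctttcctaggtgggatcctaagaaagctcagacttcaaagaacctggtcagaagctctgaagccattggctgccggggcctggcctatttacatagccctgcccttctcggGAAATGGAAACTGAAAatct
Lgals9: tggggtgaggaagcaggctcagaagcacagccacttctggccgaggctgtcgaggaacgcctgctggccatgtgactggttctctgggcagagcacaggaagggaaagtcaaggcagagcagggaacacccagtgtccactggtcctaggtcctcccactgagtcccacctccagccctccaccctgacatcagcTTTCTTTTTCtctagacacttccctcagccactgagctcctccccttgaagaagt
Oas1a holds 2 matches that overlap each other and Lgals9 holds 1, whereas the windows of Stat4 and Ifit2 hold none. The core was in 6 of 139 windows of negative genes (4.32%), in 4 of 207 of positive genes (1.93%) and in 223 of 8421 of all tested genes with a window (2.65%). The other motifs were in 5.04% (AP-1), 1.44% (CRE), 4.32% (STAT and BCL6 core), 7.91% (E-box) and 0% (NF-kB) of windows of negative genes, and in 4.83%, 0.483%, 9.18%, 9.18% and 0% of those of positive genes. No test was made on these shares.

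Memory cells of day 40 carried the largest negative interaction. Mapk12, the p38 gamma kinase, read 2.29, 2.23 and 2.86 in memory and 3.57, 3.12 and 2.46 in germinal center cells of day 7, and 2.26, 2.27 and 2.81 in germinal center cells of day 40. It read 9.61, 9.17 and 9.54 in memory cells of day 40, far above all 9 others, with an interaction of -7.58 ± 0.41 (adjusted p = 4.65e-06). Ackr3, a scavenging receptor for the chemokine CXCL12, read 6.55, 9.95 and 9.36 there and 2.15 on the other 9 arrays. It thus exceeded germinal center cells of day 40 by at least 6.20, and replicate 1 was the lowest of its memory arrays of day 40. Gad1, which makes the transmitter GABA, read 8.29, 8.19 and 7.68 there and 2.16 to 4.07 elsewhere (-4.75 ± 0.42, adjusted p = 0.000146). Germinal center cells of both days were at background for Gad1, and memory cells of day 40 exceeded those of day 40 by at least 5.64. Ptpn14, a tyrosine phosphatase, read 6.18, 7.11 and 7.08 against 2.15 on all other arrays, a difference at day 40 of at least 4.37. Ackr3 and Ptpn14 passed the filter only through memory cells of day 40. Sema4f, a semaphorin, read 8.25, 6.99 and 7.00 and overlapped no other array, the next being 5.55 in germinal center cells of day 7 (-5.97 ± 0.93). Myof, a membrane repair protein counted with the follicular and marginal zone markers, had -3.30 ± 0.45 (adjusted p = 0.00252). It was the called gene of 11 tested there, beside 4.26% of all tested genes.

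A low value in memory cells of day 40 gave the opposite sign. Psrc1, a microtubule-binding protein of the mitotic spindle, read 7.90, 7.34 and 6.43 in memory cells of day 7, 9.59, 9.02 and 9.23 in germinal center cells of day 7 and 9.51, 9.86 and 10.01 in germinal center cells of day 40. In memory cells of day 40 it read 2.90, 2.92 and 2.53, the 3 lowest values. Germinal center cells thus exceeded memory cells by 2.06 ± 0.33 at day 7 and by 7.01 ± 0.33 at day 40 (interaction 4.95 ± 0.46, adjusted p = 0.00021). Slpi, a secreted protease inhibitor, had 2.49 ± 0.28 (adjusted p = 0.000915), with 11.72, 11.77 and 11.13 in memory cells of day 40 against 12.83 to 13.78 elsewhere. Mvd, an enzyme of cholesterol synthesis, had 1.31 ± 0.26 (adjusted p = 0.0192). It was the called gene among 16 of that pathway, beside 4.26% of all tested genes.

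Memory cells of day 7 stood apart for genes that were high there and lower in memory cells of day 40. S100a4, a calcium-binding protein of motile cells, read 10.21, 11.39 and 11.08 in memory cells of day 7 and 5.85, 5.55 and 5.32 in memory cells of day 40. Germinal center arrays read 2.52, 2.15 and 2.15 at day 7 and 5.06, 2.15 and 2.15 at day 40, where the 5.06 came from replicate 1, the array with S100a9 at 13.84. The interaction was 6.17 ± 0.95 (adjusted p = 0.00478) and 5.20 (adjusted p = 0.00021) without that array. Ppfia4, a liprin scaffold protein, read 9.25, 10.42 and 9.72 in memory cells of day 7 and at most 3.70 elsewhere (6.12 ± 0.43, adjusted p = 2.4e-05). Emp1, an epithelial membrane protein, read 6.60, 8.03 and 7.70 there, and memory cells of day 40 had a mean of 2.16, lower by at least 5.03. It passed the filter only through memory cells of day 7.

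Tnfrsf17 and Fkbp11, of the plasma cell program, were also highest in memory cells of day 7. Tnfrsf17, the survival receptor BCMA, read 4.79, 4.89 and 5.13 in memory cells of day 7 and 2.15 on all other arrays, above germinal center cells of day 7 by at least 2.51, and passed the filter only through that group. Fkbp11, a chaperone of the secretory pathway, read 7.23, 7.85 and 7.11 there against at most 3.72 (4.06 ± 0.45, adjusted p = 0.00077). Of 20 tested genes of the plasma cell program 5 had a called positive interaction and none a negative one (list median 0.40), beside 2.48% and 1.78% of all tested genes, and 4 of the 19 that did not pass the filter through 1 group alone. Besides Tnfrsf17 and Fkbp11 they were Prdm1, Slpi and Slamf7 (1.84 ± 0.45, adjusted p = 0.0453). Slpi and Slamf7 were lowest in memory cells of day 40. For Slpi the means of memory cells of day 7 (13.49) and germinal center cells of day 40 (13.48) were level. Xbp1, which drives the secretory response, had -0.51 ± 0.26 (adjusted p = 0.306). The list held 3 positive genes without memory day 7 replicate 2, germinal center day 7 replicate 2 or 3, memory day 40 replicate 3 or any 1 germinal center array of day 40, and 4 without any 1 of the others. Without memory day 7 replicate 1 it also held 1 negative gene.

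Cd5, an inhibitory receptor of T cells and some B cells whose antibody was in the depletion mix, read 5.59, 6.57 and 6.43 in memory cells of day 7 and 2.17 to 2.63 on the other 9 arrays (3.56 ± 0.33, adjusted p = 0.000187). Adgre1, which encodes the macrophage antigen of the same mix, read 5.22, 5.81 and 5.95 in memory cells of day 7 and 3.89, 4.95 and 3.50 in those of day 40, but its interaction of 1.67 ± 0.47 did not pass (adjusted p = 0.0742). Cd68, a lysosomal protein abundant in macrophages, read 10.60 to 11.42 in memory cells of day 7 and 7.67 to 9.07 elsewhere (3.40 ± 0.45, adjusted p = 0.00213). Alox5ap, which hands arachidonic acid to the leukotriene pathway, had 5.04 ± 1.14 (adjusted p = 0.0334) and lost its call in 9 of 23 alternatives. Beside these genes, the summed level of 20 myeloid markers ran from 12.57 to 14.85 (log2) in memory cells of day 7, 12.39 to 14.12 in those of day 40, 10.20 to 11.18 in germinal center cells of day 7 and 10.09 to 14.63 in those of day 40, with 7 to 12, 9 to 14, 5 to 8 and 4 to 14 of the markers above the array median. Cd68 was the called one of the 14 tested, beside 4.26% of all tested genes. The part of myeloid cells in these results was not tested, and fewer cells of a type cannot be told apart from less RNA per cell.

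Germinal center cells of day 7 stood apart in the fewest genes. Ccnd2, which encodes cyclin D2, the G1 cyclin that memory and resting B cells use on activation, read 11.63, 11.62 and 11.52 in memory cells of day 7 and 12.37, 11.89 and 11.47 in those of day 40. In germinal center cells it read 2.63, 4.28 and 3.10 at day 7 and 8.83, 9.22 and 9.15 at day 40, so both germinal center groups lay below memory and apart from each other. The gap to memory narrowed from -8.25 ± 0.37 to -2.84 ± 0.37, an interaction of 5.41 ± 0.52 (adjusted p = 0.000278), and the 6 additional probe sets gave 1.29 to 4.20. Pde2a, a phosphodiesterase that breaks down cyclic AMP and cyclic GMP, was high in germinal center cells of day 7 at 10.12, 8.79 and 9.47, against 3.40 to 5.77 on all other arrays (-6.66 ± 0.81, adjusted p = 0.0013). Ebi3, a subunit of interleukins 27 and 35, read 7.87, 6.13 and 6.52 in germinal center cells of day 7 and 8.58, 8.78 and 9.23 in those of day 40, below 10.03 to 10.95 in memory (2.64 ± 0.53, adjusted p = 0.0194). Batf, an AP-1 family factor needed for class switching, read 8.51, 8.68 and 8.25 in germinal center cells of day 7 and 9.83, 9.55 and 10.39 in those of day 40. Memory cells moved the other way, from 10.51, 11.16 and 10.70 to 9.51, 9.48 and 9.23, so no single group stood apart (2.83 ± 0.33, adjusted p = 0.00109). Batf and Ebi3 were the called genes, both positive, among 20 tested light zone genes, whose median was 0.31, beside 2.48% of all tested genes.

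Few calls would fall in lists of this size at the 4.26% of all tested genes, so a count of 0 says little about the germinal center genes. Of 22 tested genes of the germinal center program limma called none (median -0.04) and 3 had an unadjusted p under 0.05, while 13 were higher in germinal center cells at day 7 and 14 at day 40. None of 14 dark zone genes (median 0.39) and none of 21 DNA repair and mutation genes (median 0.10) was called, with 3 and 1 at an unadjusted p under 0.05. The memory arrays of day 7 were uneven in all these lists. Mean log2 on replicate 1 against replicates 2 and 3 was 11.49 against 9.65 and 9.87 for the germinal center program. It was 9.10 against 7.08 and 7.39 for dark zone genes and 9.87 against 8.21 and 8.21 for DNA repair, which widens the errors. Bcl6 had -0.09 ± 0.30 (adjusted p = 0.889), with means of 12.63 and 13.94 at day 7 and 12.92 and 14.13 at day 40 in memory and germinal center cells, though its second, dimmer probe set gave 1.99 ± 0.93. Bach2, a repressor that holds back plasma cell fate, had -0.44 ± 0.27 (adjusted p = 0.409), and Pax5, the factor of B cell identity, had -1.29 ± 0.82 (adjusted p = 0.412). Irf4, which acts in both fates by dose, had 0.36 ± 0.24 (adjusted p = 0.436), Myc 0.36 ± 1.09 (adjusted p = 0.883) and Nr4a1, a reporter of antigen receptor signalling, -0.40 ± 0.26 (adjusted p = 0.434). With an error as wide as that of Myc, a shift of 1 unit was not detectable.

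Mitosis genes lay on 1 side of 0 without passing the threshold. All 27 tested had a positive estimate, with a median of 1.79 beside 0.033 for all genes, and none was called (7 at an unadjusted p under 0.05), Aurkb coming nearest at 2.67 ± 0.72 (adjusted p = 0.0661). All 27 were higher in germinal center cells at both days, with a median difference of 3.54 at day 7 and 5.50 at day 40, and 2 were lower in memory cells of day 40 than of day 7. The size of this median moved with memory day 7 replicate 1, the array nearer to germinal center cells in its mean r. Mki67 read 13.71 on that array against 12.15 and 12.23 on the other memory arrays of day 7. Without that array the median interaction was 0.74 with 1 gene called, and without memory day 7 replicate 2 it was 2.51. The memory arrays of day 40 were uneven too. Mean log2 of the mitosis genes was 6.10 on replicate 3 against 7.25 and 7.84 on replicates 1 and 2. The 27 DNA replication genes had a median of 0.07, and 1 was called, beside 4.26% of all tested genes. It was Cdt1, a licensing factor for replication origins, at -1.09 ± 0.20 (adjusted p = 0.0112). The mean log2 of the DNA replication genes was also higher on memory day 7 replicate 1, at 11.24 against 8.88 and 9.10 on the other memory arrays of day 7.

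Memory markers were called in both directions, and Bcl2, the called gene of its family, was negative. Of 22 tested memory markers 4 had a positive and 3 a negative interaction (median -0.03), beside 2.48% and 1.78% of all tested genes. Of the 21 that did not pass the filter through 1 group alone, 4 were positive and 2 negative. Bcl2, the survival gene that is low in germinal center cells, read 11.27, 11.81 and 11.74 in memory and 5.73, 5.36 and 5.12 in germinal center cells of day 7, then 12.55, 12.22 and 12.16 in memory and 3.76, 2.49 and 2.57 in germinal center cells of day 40. No group overlapped another. The gap widened from -6.20 ± 0.32 to -9.37 ± 0.32, an interaction of -3.17 ± 0.46 (adjusted p = 0.00338). The 4 additional Bcl2 probe sets, with germinal center means near background, gave -0.33 to -2.34. Bcl2 was the called gene of 11 tested in its family, beside 4.26% of all tested genes. Mcl1, the survival gene germinal center cells rely on, had -0.04 ± 0.17. Pdcd1lg2, the ligand PD-L2 that marks memory subsets, had -3.66 ± 0.62 (adjusted p = 0.00773), with 5.69, 5.20 and 3.73 in germinal center cells of day 40 against 8.05, 7.46 and 8.55 in those of day 7.

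Zbtb32, a repressor that restrains memory recall, had 3.71 ± 0.66 (adjusted p = 0.0102), with 8.89, 10.50 and 9.93 in memory cells of day 7 and 6.46, 5.12 and 6.20 in those of day 40. Cxcr3, a chemokine receptor for interferon-induced ligands, had 2.51 ± 0.40 (adjusted p = 0.00599), at 10.74, 11.15 and 10.62 in memory cells of day 7 and 7.79, 9.06 and 8.35 in those of day 40, and stayed at 2.40 to 2.79 in all germinal center arrays. Itgb1, the integrin beta 1 chain, had 2.53 ± 0.55 and lost its call in 8 of 25 alternatives. Itgb7, the beta 7 chain of the gut-homing integrin, had -3.57 ± 0.79 and lost its call in 11 of 25. Of 18 tested migration receptors 1 was positive and 2 negative (median -0.54), the latter being Ackr3 and Itgb7, beside 2.48% and 1.78% of all tested genes. Of the 17 that did not pass the filter through 1 group alone, 1 was positive and 1 negative. Of 21 S100 and cytoskeletal genes 5 were positive and 1 negative (median 0.16), beside the same 2.48% and 1.78%. Of the 19 that did not pass the filter through 1 group alone, 4 were positive and 1 negative. The 5 positive genes were S100a4, Emp1, Lgals3 (2.47 ± 0.52, its call lost in 9 of 23 alternatives), Ahnak (2.02 ± 0.37) and Capg (1.78 ± 0.38). The negative gene was Cnn3. Without memory day 7 replicate 2 or 3 or memory day 40 replicate 2 there were 3 positive genes, and without any 1 of the other arrays 4 or 5.

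**Figure D4:**
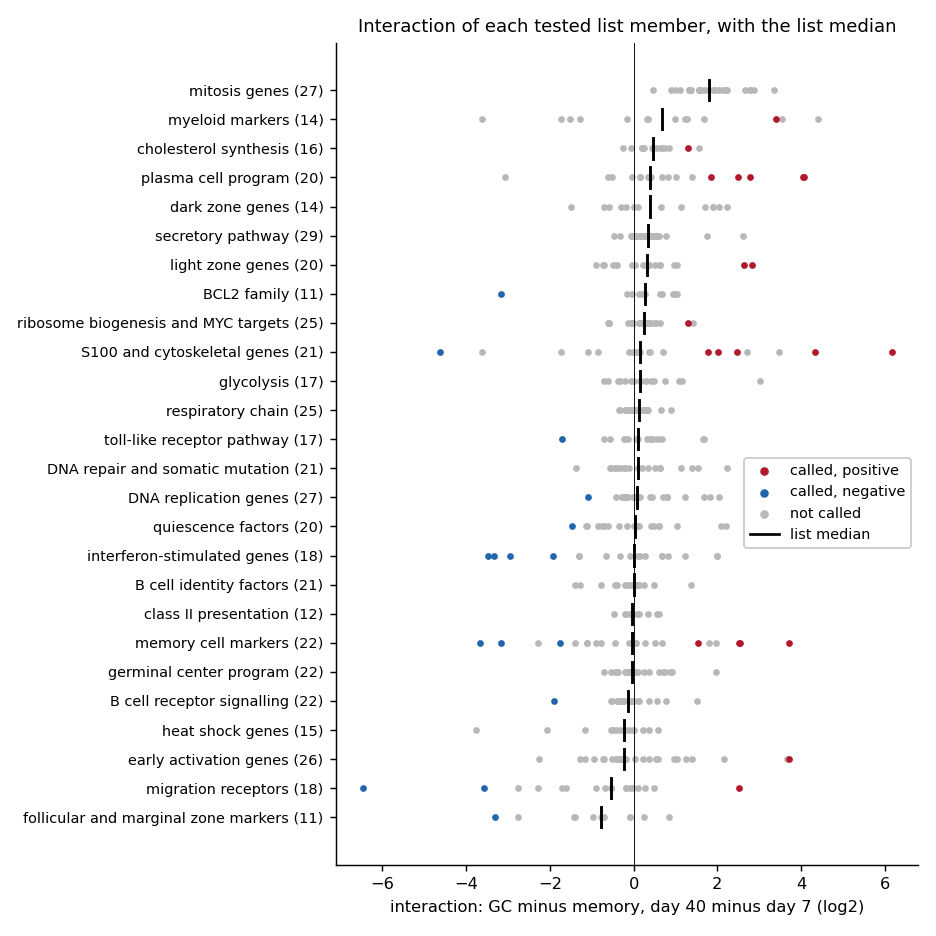
Each row is a gene list with at least 10 tested members, their number in brackets, and each point is a member's interaction (log2), red or blue where called and grey where not. The black tick is the list median, which is 1.79 for mitosis genes and between -0.77 and 0.68 for the others.

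In the remaining lists calls were too few to set against the 4.26% of all tested genes. None of 25 respiratory chain genes, 29 genes of the secretory pathway, 17 of glycolysis, 12 of class II presentation, 15 heat shock genes and 21 B cell identity factors was called, with medians of 0.12, 0.34, 0.16, -0.03, -0.22 and 0.01 and 4, 8, 5, 2, 2 and 3 genes at an unadjusted p under 0.05. Of 25 genes of ribosome biogenesis 1 was called, Polr1b, a subunit of RNA polymerase I (1.29 ± 0.27, adjusted p = 0.024), and it lost the call in 8 of 24 alternatives. Of 17 genes of the toll-like receptor pathway 1 was called, Irak3, a brake on that pathway (-1.70 ± 0.35, adjusted p = 0.0213), which was bright in memory cells, at 10.68 to 12.22, and at 2.71 to 4.17 in germinal center cells. None of 6 T cell, 3 NK cell and 2 red cell or platelet markers that could be tested was called, with 2, 0 and 0 at an unadjusted p under 0.05.

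The number of called genes moved with single arrays. Leaving out memory day 7 replicate 2 gave 187 positive genes and leaving out memory day 7 replicate 1 gave 301, and negative genes ran from 134 without germinal center day 40 replicate 2 to 213 without memory day 7 replicate 1. Of the 59 named genes with a called interaction, 46 kept their call in every alternative that could give a value, and no alternative reversed one.

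**Figure D5:**
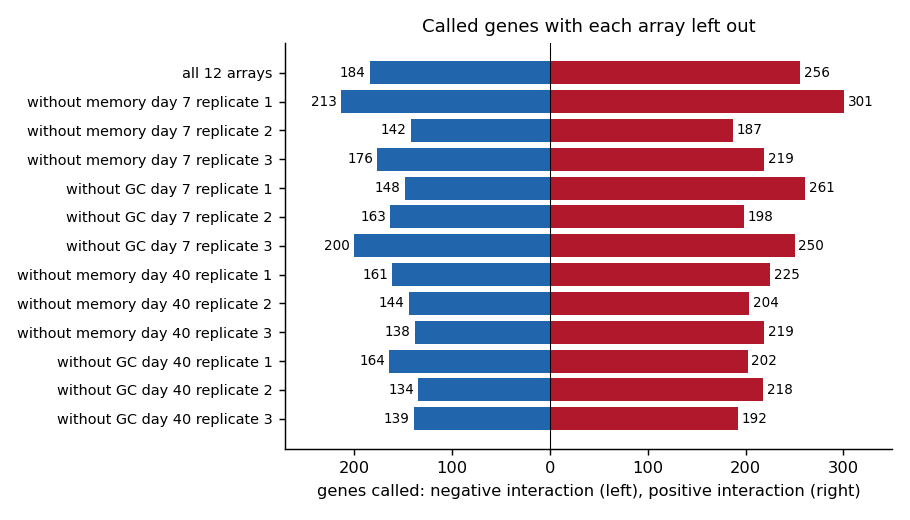
Bars give the number of genes with a called negative (left, blue) and positive (right, red) interaction, with all 12 arrays in the top row and with 1 array left out in each row under it. Positive counts run from 187 to 301 and negative counts from 134 to 213.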

How the data were processed

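RNA of sorted mouse spleen B cells was hybridized to Affymetrix arrays, 1 array per sample, and 12 of 24 arrays were used. The authors deposited log2 values of 45101 probe sets, a GCRMA summary (version not given) per the submitters' processing notes. No normalization was added. The brightest probe set by mean over the 12 arrays stood for each of 18193 genes. The 10319 genes above the array median on at least 3 arrays were tested with limma 3.58.1 (R 4.3.3), with a mean for each of 4 groups, moderated variances and Benjamini-Hochberg adjustment over all genes tested. Calls needed an adjusted p under 0.05 and a log2 difference of at least 1. Named genes were the 15 largest called interactions each way that kept sign and a size of 1 without any single array, index genes, sort markers and up to 4 called members of each list; genes with placeholder names and antigen receptor segments were skipped, and smaller changes may be unnamed. Genes outside this rule are marked or are list members given as examples. The members and the 31 lists (478 of 574 genes tested) were chosen with earlier results of these data known. Promoter windows came from RefSeq (GRCm38.p6). Gene symbols came from the platform annotation: 34945 probe sets had 1 symbol, 932 several and 9224 none or were controls. The procedure was tested on simulated data. Alternatives covered the filter, normalization, offset, probe set choice, fit, array weights, replicate block and each array left out. The number of arrays limits the precision. Figures were drawn with matplotlib 3.10.9 (Python 3.11.15).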

Additional observations from a re-analysis of the deposited data

Results flagged for a closer look

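The test of the interaction itself found that the germinal center minus memory difference was not the same at day 7 and day 40 in 256 genes with a positive and 184 with a negative interaction. Among the named genes the same test, by limma with Benjamini-Hochberg adjustment, found positive interactions (log2) for Gstt1 (9.74), Nrep (8.08), Gstt3 (6.77), S100a4 (6.17), Ppfia4 (6.12), Rflna (6.05), Trpm5 (5.82), Ranbp17 (5.61), Ccnd2 (5.41), Morrbid (5.30), Fer (5.20) and Rgs9 (5.06). Smaller positive values were those of Alox5ap (5.04), Psrc1 (4.95), Eepd1 (4.94), Emp1 (4.33), Fkbp11 (4.06), Prdm1 (4.05), Zbtb32 (3.71), Ier3 (3.70), Cd5 (3.56), Cd68 (3.40), Batf (2.83), Tnfrsf17 (2.79), Ebi3 (2.64), Itgb1 (2.53), Cxcr3 (2.51), Slpi (2.49), Lgals3 (2.47), Mvd (1.31) and Polr1b (1.29). Negative interactions were found for Mapk12 (-7.58), Pde2a (-6.66), Ackr3 (-6.47), Stat4 (-6.43), Dusp3 (-6.00), Sema4f (-5.97), Pip4p2 (-5.91), Il10ra (-5.78), Lgals9 (-5.38), Cdyl2 (-5.35), Arhgef3 (-4.97) and Rdx (-4.95). Smaller negative values were those of Calcrl (-4.91), Gad1 (-4.75), Ptpn14 (-4.64), Cnn3 (-4.63), Pdcd1lg2 (-3.66), Itgb7 (-3.57), Oas1a (-3.47), Ddx58 (-3.33), Myof (-3.30), Bcl2 (-3.17), Cmpk2 (-2.95), Ifit2 (-1.93), Cd72 (-1.91), Irak3 (-1.70), Klf7 (-1.47) and Cdt1 (-1.09). Nrep, Rflna, Trpm5, Ranbp17, Fer, Rgs9, Ackr3, Ptpn14, Ier3, Tnfrsf17 and Emp1 passed the filter on dim genes only through 1 group, so their values are descriptions. These values are differences between the days in labelled groups of 3 arrays each, and groups of 3 were not searched for arrays far from the rest.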

How the results depend on the processing

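No called interaction of a named gene changed sign under an alternative. Among named genes that were not called, averaging the probe sets of each gene gave Irf4 -0.02, Ighm -0.04 and Bcl6 0.95, and Cd80 became -0.06 with arrays shifted to a common median and -0.44 with the offset. With 1 array left out Myc ran from -0.46 to 1.12, Bcl6 from -0.30 to 0.08 and Cd80 from -0.48 to 0.67. The shift to a common median also turned the balance of calls to 219 positive and 256 negative. With no filter on dim genes the interaction called 156 genes higher and 106 lower, and memory cells of day 40 had 171 genes higher than at day 7. With the filter at the 75th percentile of the array the interaction called 145 and 108, which tests fewer genes, germinal center against memory had 839 lower at day 7 and 868 at day 40, memory cells of day 40 against day 7 had 125 higher and 127 lower, and germinal center cells 172 and 154. With only genes that had no group at background 169 were higher. With array weights the interaction called 518 and 298, and memory cells of day 40 against day 7 431 and 370. With no minimum change the counts were 2421 and 2189 for germinal center against memory at day 7, 2945 and 2332 at day 40, 447 and 485 for memory cells between the days and 377 lower in germinal center cells. The cause of the other shifts was not tested.

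Leaving out each array in turn gave 187 to 301 higher and 134 to 213 lower interactions. For germinal center against memory it gave 1118 to 1442 higher and 1166 to 1480 lower at day 7, and 1586 to 1728 and 1259 to 1407 at day 40. Between the days it gave 189 to 337 higher and 162 to 275 lower in memory cells, and 278 to 415 and 179 to 255 in germinal center cells. The replicate numbers were not taken to pair the arrays, since not every same-numbered pair correlated above 0.1 in its deviations: these ran from -0.252 to 0.328 with a median of 0.126, against -0.054 for different numbers, and not every array correlated best with its own number. With the replicate block the interaction called 226 and 159, of which 209 and 147 were also called without it, and the calls of Alox5ap, Lgals3, Ddx58 and Polr1b were lost (adjusted p = 0.066, 0.0587, 0.0561 and 0.0525). The floor of 2.15 held 40.6% to 42.4% of probe sets, which limits what dim genes can show.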
